A study of Mus musculus with 6 samples.

Results

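The genes described here are the 3 TGF-beta ligand genes (Tgfb1, Tgfb2 and Tgfb3), the 3 receptor genes (Tgfbr1, Tgfbr2 and Tgfbr3) and the 4 latent TGF-beta binding protein genes (Ltbp1 to Ltbp4) of the mouse. They were chosen by symbol and make up 10 of the 43432 genes counted. RNA of samples whose source is given as skeletal muscle was counted in 6 libraries, 3 labelled FID and 3 labelled Control. The series concerns a mouse that lacks Igf1, the gene of insulin-like growth factor I, in its fibro-adipogenic progenitors (FAPs), which are mesenchymal cells between the muscle fibres. Tamoxifen, at 100 ug per g of body weight on 5 days, was given from 12 to 13 weeks of age, followed by a pause of 1 week or more, and no group is stated to have gone without it. All 6 titles carry the tag D3. FID and D3 are not spelled out in the labels, which also leave out the strain, the genotype of the controls and the driver of the deletion. Mice of either sex were used, and no label ties a library to its own animal, so the spread behind each p-value is that between libraries and may be technical.

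TGF-beta is secreted in a latent form, folded inside its own cleaved propeptide, and a latent binding protein ties this complex to the extracellular matrix until integrins or proteases free the ligand. The freed ligand binds the type II receptor TGFBR2, which recruits and phosphorylates the type I receptor TGFBR1, and the signal passes to SMAD proteins in the nucleus. The type III receptor TGFBR3, betaglycan, holds ligand at the cell surface and matters most for TGF-beta 2. In injured muscle TGF-beta is known as a signal of macrophages and other cells that keeps FAPs alive and drives them to make matrix.

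Depth ranged from 8750157 to 9676812 gene counts in the FID libraries and from 5201853 to 10093757 in the Control libraries, with Control 1 the shallowest. Igf1 measured 109, 107 and 81.6 CPM (counts scaled to library size with TMM factors) in FID 1, 2 and 3, against 134, 60.4 and 106 CPM in Control 1, 2 and 3. The levels overlapped, and without knowing which part of the gene was removed the labels could not be checked on it, so FID and Control are used here as labels only. Myofibre transcripts were scarce for a muscle sample, the summed level of 8 markers being 15.4 to 27.5 CPM in FID and 6.39 to 59.1 CPM in Control libraries. The libraries thus held few of the defining transcripts of the labelled tissue. The protocols describe RNA taken from tissue and from primary FAPs, and do not say which of these was sequenced. FAP and fibroblast markers were abundant, with a summed level of 9532 to 10672 CPM in FID and 9081 to 11063 CPM in Control libraries, although Vim, which many other cells also express, made up 5884 to 6531 CPM of it in FID and 5787 to 7344 CPM in Control, and Tcf21 had no count in 5 of the 6. Pdgfra, the defining marker of FAPs, stood at 457 to 606 CPM in FID and 565 to 871 CPM in Control. On the first principal component, which held 44.9% of the variance, FID 1 lay at 1.35 between FID 2 and 3, at 38.2 and 34.2, and Control 1, 2 and 3, at -35.2, -23.7 and -14.8. Control 1 stood apart on the second component (31.7%), at 39.5 against -32.7 to 18.8 in the other libraries.

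Upstream sequences of Ltbp3, which showed the lowest log2 fold change of the 10 genes, of Tgfb2, another gene lower in every FID library, and of Tgfb1, whose mean level hardly differed, are shown first. Each is the 250 bases before the annotated start, from RefSeq on GRCm38.p6, printed 5′ to 3′ on the gene's strand. RefSeq windows matched 8 of the 10 genes, and Tgfb3 and Tgfbr3 had none in the table used. Capitals mark, on either strand, the core letters bound by SMAD proteins (CAGAC), the GC box of SP1-type factors (GGGCGG) and the TATA box (TATAAA).
Ltbp3, chr19:5740650-5740899, plus strand: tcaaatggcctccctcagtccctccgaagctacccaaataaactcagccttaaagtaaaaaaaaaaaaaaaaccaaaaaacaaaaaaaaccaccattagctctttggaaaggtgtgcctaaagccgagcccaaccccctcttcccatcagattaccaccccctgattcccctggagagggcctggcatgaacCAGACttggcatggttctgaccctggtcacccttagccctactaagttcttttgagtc
Tgfb2, chr1:186705990-186706239, minus strand: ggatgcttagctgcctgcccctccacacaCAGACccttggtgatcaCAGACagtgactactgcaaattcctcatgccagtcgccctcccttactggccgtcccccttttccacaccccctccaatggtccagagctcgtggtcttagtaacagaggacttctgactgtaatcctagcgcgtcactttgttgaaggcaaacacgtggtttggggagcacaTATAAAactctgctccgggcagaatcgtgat
Tgfb1, chr7:25686752-25687001, plus strand: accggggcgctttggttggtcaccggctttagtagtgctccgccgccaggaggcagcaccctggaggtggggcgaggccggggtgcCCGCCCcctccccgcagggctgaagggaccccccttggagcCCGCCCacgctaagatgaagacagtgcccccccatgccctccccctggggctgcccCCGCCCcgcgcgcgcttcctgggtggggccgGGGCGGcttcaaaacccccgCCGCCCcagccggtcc
The Ltbp3 window held 1 CAGAC match and no GC or TATA box, and its GC content was 47.2%. The Tgfb2 window held 2 CAGAC matches and 1 TATA box, at a GC content of 53.6%. The Tgfb1 window held 5 GC boxes, no CAGAC and no TATA box, at 75.2% GC. Over all 32851 windows of this length, CAGAC occurred in 42.2%, the GC box in 32.7% and the TATA box in 12.4%, and the median GC content was 52.4%. The full SMAD palindrome GTCTAGAC, which occurred in 0.2% of all windows, was in none of these 3. Among the other genes with a window, CAGAC was found for Tgfbr1, Tgfbr2, Ltbp1 and Ltbp2, and the GC box for Tgfbr1, Ltbp2 and Ltbp4, some of them in only 1 of several windows. A match says only that the letters are present.

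The ligands also differ in the integrin recognition site of their propeptide, an arginine-glycine-aspartate triplet that alpha-v integrins grip to release the ligand. It was looked for in the longest open reading frame of each gene's GENCODE M21 transcripts, and the 9 bases that encode it are in capitals.
Tgfb1, triplet from codon 244, chromosome 7: cccaaacgtCGGGGCGACctgggcaccatc
Tgfb3, triplet from codon 261, chromosome 12: gaccatggcCGTGGAGACctggggcgtctc
The frames of Tgfb1 and Tgfb3 held 1 such triplet each, written with different codons, and that of Tgfb2 held 0.

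Per exon length the 10 genes were all expressed, and most neighbours in the order of their levels lay within each other's spread. On the TPM scale, where counts are divided by exon length and scaled to the library total, the mean over the 6 libraries was highest for Ltbp2, at 164 ± 75.4, followed by Tgfbr2 at 110 ± 29.3 and Tgfb1 at 98.6 ± 23.4 (SD). Tgfbr3 had 90.5 ± 17.96, Tgfb3 81.9 ± 44.2 and Ltbp4 77.8 ± 60.1 TPM. Tgfbr1, Ltbp3 and Ltbp1 followed with 61.4 ± 14.2, 52.2 ± 26.8 and 44.9 ± 12.8 TPM. Tgfb2 came last with 17.5 ± 5.57 TPM. Of the 9 neighbouring pairs in this order, only Ltbp1 and Tgfb2 were further apart than the larger of their SDs, and Ltbp1 was the higher of these in 6 of 6 libraries. The order of the means differed between the groups. Tgfb1 averaged 95.03 ± 10.4 TPM in FID and 102 ± 35.0 TPM in Control (SD, n = 3 each). Tgfb3 averaged 53.95 ± 6.33 TPM in FID and 109.8 ± 50.1 TPM in Control. By its mean Tgfb3 ranked below Tgfb1 in FID and above it in Control, where the gap lay well within the SDs. It was the higher in Control 1 and 3 but the lower in Control 2, at 73.2 against 95.2 TPM. Counts were ample, from 159 reads of Tgfb2 in FID 3 to 6474 of Ltbp2 in Control 2, and all 10 genes passed the filter on low counts.

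Between the groups, 8 of the 10 genes had a log2 fold change (FID over Control) below 0, and in 4 of them, Tgfb2, Tgfb3, Tgfbr3 and Ltbp3, every FID library lay below every Control library. None lay wholly above. Over all 12881 genes tested 25.3% separated, 12.3% downward and 13.0% upward, while 52.2% had a log2 fold change below 0 and 47.8% one above 0. The median log2 fold change was -0.43 over the 10 genes and -0.019 over all genes tested. With Benjamini-Hochberg adjustment over all genes, no gene passed the quasi-likelihood test of edgeR at 0.05, neither among the 10 nor elsewhere (0 of 12881, or 0% called). At an unadjusted p under 0.05 there were 3 of the 10, all lower in FID, against 19.0% of all genes at that level, 9.21% lower and 9.81% higher. DESeq2 called 764 genes, Ltbp3 among them, and limma-voom called 0.

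**Figure D1:**
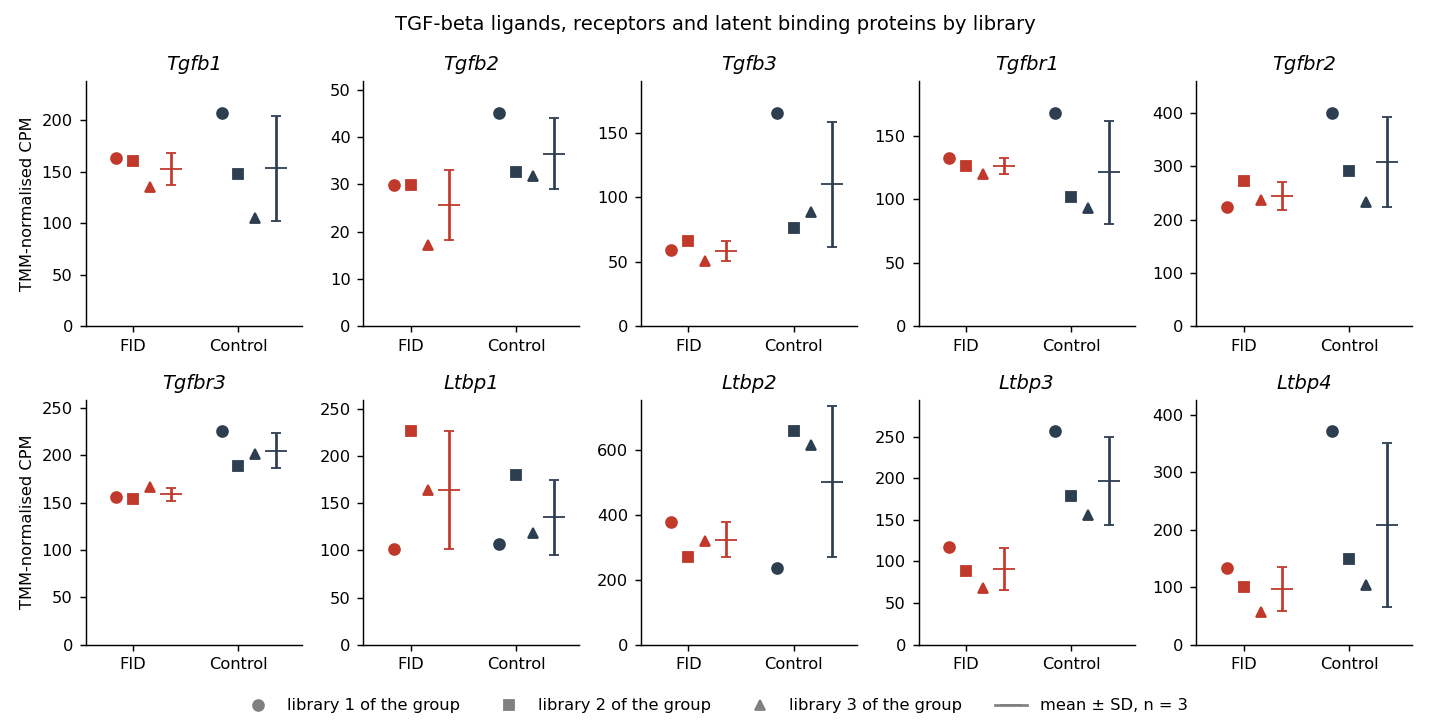
TMM-normalised CPM of the 10 genes in each library, with a linear axis from 0 for each gene, FID in red and Control in dark blue, symbols for library 1, 2 and 3 of the group and bars for the mean ± SD (n = 3). The FID libraries lie below all Control libraries in the panels of Tgfb2, Tgfb3, Tgfbr3 and Ltbp3, and Control 1 stands far above the rest for Tgfb3 and Ltbp4.

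Among the ligands, Tgfb1 held the same mean level in the groups while Tgfb3 was lower in the FID libraries. Tgfb1 (ENSMUSG00000002603, mm10 chromosome 7, 25687002 to 25705077, plus strand) encodes the isoform best known from immune cells and injured tissue. It measured 164, 161 and 135 CPM in FID 1, 2 and 3, against 207, 148 and 105 CPM in Control 1, 2 and 3. All 3 FID values lay within the range of the Control values. The means were 153 ± 15.5 CPM in FID and 153 ± 51.3 CPM in Control (SD, n = 3 each), a log2 fold change of -0.00057 (SE 0.24) with a 95% interval of -0.56 to 0.56. Its sign turned with the scaling, being 0.013 with upper-quartile factors.

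Tgfb3 (ENSMUSG00000021253, chromosome 12, 86056745 to 86079041, minus strand) encodes an isoform made largely by mesenchymal cells. Its level was 58.9, 66.1 and 50.2 CPM in FID 1, 2 and 3, against 166, 76.2 and 88.5 CPM in Control 1, 2 and 3. The groups did not overlap, and Control 1 lay far above the other Control libraries. The log2 fold change was -0.91 (SE 0.29, adjusted p 0.182 in edgeR), a 1.88-fold lower level in FID. It was -0.50 without Control 1 (adjusted p 0.148 in edgeR).

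Tgfb2 (ENSMUSG00000039239, chromosome 1, 186622792 to 186705989, minus strand), the isoform that depends on betaglycan, was the rarest of the 10. It stood at 29.9, 29.8 and 17.2 CPM in FID 1, 2 and 3, against 45.1, 32.5 and 31.7 CPM in Control 1, 2 and 3. FID 1 and 2 came close to the lowest Control library, and FID 3 was clearly the lowest. The log2 fold change was -0.50 (SE 0.25, adjusted p 0.322 in edgeR), and it was -0.28 without FID 3.

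The make-up of the ligand pool differed between the groups when set as shares within each library, which no library scaling alters. Of the summed ligand TPM, Tgfb1 made up 59.0%, 56.3% and 60.1% in FID 1, 2 and 3, against 42.0%, 51.0% and 39.7% in Control 1, 2 and 3. Every FID share lay above every Control share, with means of 58.5 ± 1.94% in FID and 44.2 ± 5.96% in Control (SD, n = 3 each). Tgfb3 was the counterpart, at 31.7%, 34.6% and 33.3% in FID, against 50.05%, 39.2% and 49.8% in Control. The share of Tgfb2 overlapped, with 6.64% to 9.37% in FID and 7.95% to 10.4% in Control. These shares are given as a description, since they sum over genes of the family. The summed ligand level was 178, 169 and 141 TPM in FID, against 334, 187 and 179 TPM in Control, with FID 1 just under Control 3.

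**Figure D2:**
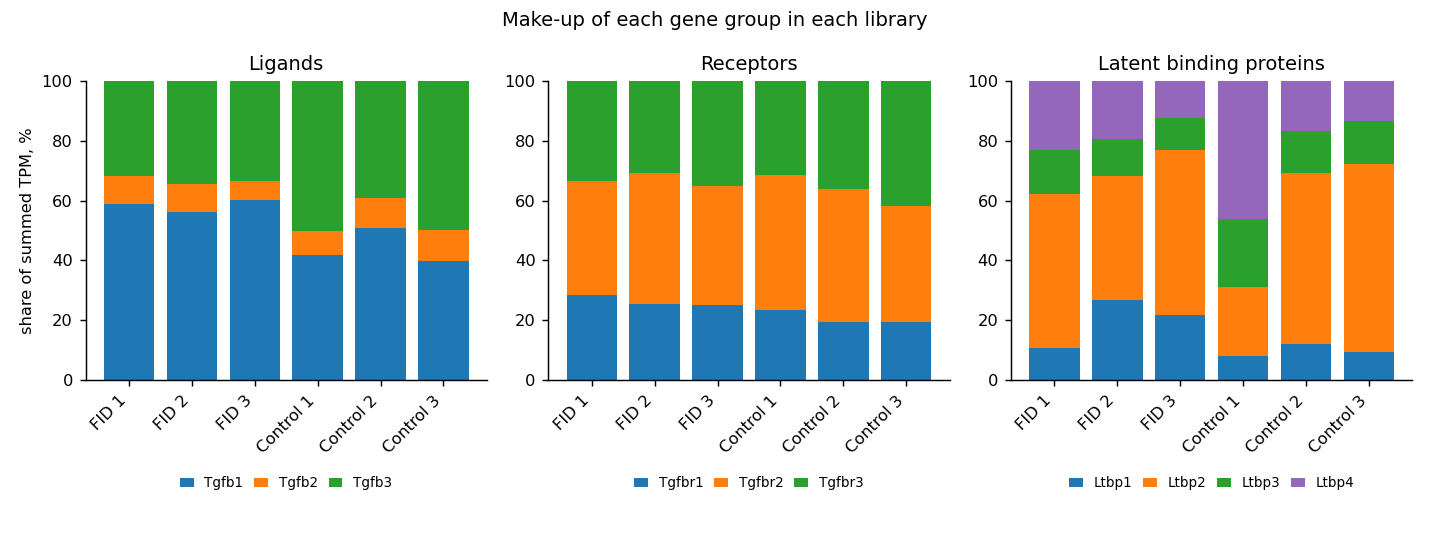
Share, in percent of summed TPM, of each gene within the ligands, the receptors and the latent binding proteins, 1 bar per library with FID left and Control right. Tgfb1 takes 56.3% to 60.1% of the ligand bar in FID and 39.7% to 51.0% in Control libraries, and Ltbp4 takes 46.2% of the bar of Control 1.

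Among the receptors, betaglycan was lower in the FID libraries and the signalling receptors overlapped. Tgfbr3 (ENSMUSG00000029287, chromosome 5, 107106570 to 107289629, minus strand) measured 156, 153 and 167 CPM in FID 1, 2 and 3, against 225, 188 and 201 CPM in Control 1, 2 and 3. The groups did not overlap, and the values were close to each other within each group. The means were 159 ± 7.03 CPM in FID and 205 ± 18.6 CPM in Control (SD, n = 3 each), a log2 fold change of -0.37 (SE 0.12, adjusted p 0.191 in edgeR). This was a small difference, 1.29-fold, but it varied little with the library left out, from -0.42 to -0.30.

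Tgfbr2 (ENSMUSG00000032440, chromosome 9, 116084293 to 116175360, minus strand) binds ligand first. It stood at 223, 273 and 237 CPM in FID 1, 2 and 3, against 400, 291 and 234 CPM in Control 1, 2 and 3. Control 1 was high and Control 3 lay among the FID libraries, so the groups overlapped. The log2 fold change was -0.33 (SE 0.21, adjusted p 0.415 in edgeR), and -0.10 without Control 1.

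Tgfbr1 (ENSMUSG00000007613, chromosome 4, 47353222 to 47414931, plus strand), the kinase that phosphorylates SMAD2 and SMAD3, had 133, 126 and 120 CPM in FID, against 168, 102 and 93.1 CPM in Control 1, 2 and 3. The FID libraries sat between Control 1 and the other Control libraries. Its log2 fold change was 0.06 (SE 0.23, adjusted p 0.904 in edgeR). Without Control 1 it was 0.37 (adjusted p 0.168 in edgeR), with every FID library above both remaining Control libraries, and it turned to -0.037 and -0.079 without Control 2 and without Control 3. The share of Tgfbr1 in the summed receptor TPM did separate the groups, with 28.4%, 25.4% and 25.2% in FID, against 23.6%, 19.6% and 19.4% in Control. The ratio of Tgfbr3 to the sum of Tgfbr1 and Tgfbr2 overlapped, with a mean log2 value of -1.02 ± 0.14 in FID and -0.81 ± 0.32 in Control (SD, n = 3 each).

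The latent binding proteins held the largest differences and also the largest spread. Ltbp3 (ENSMUSG00000024940, chromosome 19, 5740904 to 5758532, plus strand) encodes a protein that binds latent TGF-beta and is known for its role in the skeleton. Its level was 118, 88.3 and 67.5 CPM in FID 1, 2 and 3, against 257, 178 and 156 CPM in Control 1, 2 and 3. The highest FID library was still clearly below the lowest Control library. The means were 91.1 ± 25.1 CPM in FID and 197 ± 52.9 CPM in Control (SD, n = 3 each), a log2 fold change of -1.11 (SE 0.26) and a 2.16-fold lower level. The 95% interval ran from -1.71 to -0.50 and the adjusted p in edgeR was 0.136, rank 286 of the 12881 genes by p. DESeq2 gave the same fold with an adjusted p of 0.00577, so the call of Ltbp3 depended on the tool. It stayed between -1.32 and -0.88 with any 1 library left out.

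Ltbp4 (ENSMUSG00000040488, chromosome 7, 27305136 to 27337692, minus strand), a binding protein of elastic tissue, carries TGF-beta 1 and also guides elastic fibre assembly. It had 133, 100.0 and 57.0 CPM in FID 1, 2 and 3, against 371, 150 and 103 CPM in Control 1, 2 and 3. FID 1 lay above Control 3, so the groups overlapped, and Control 1 was far above every other library. The log2 fold change of -1.10 (SE 0.50, adjusted p 0.286 in edgeR) was close to that of Ltbp3, but it was -0.39 without Control 1.

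Ltbp2 (ENSMUSG00000002020, chromosome 12, 84783212 to 84876532, minus strand), the member that does not bind latent TGF-beta, went against most others in Control 1. It measured 377, 269 and 320 CPM in FID 1, 2 and 3, against 234, 656 and 615 CPM in Control 1, 2 and 3. Control 1 was the lowest library and Control 2 and 3 the highest. The log2 fold change was -0.64 (SE 0.36, adjusted p 0.371 in edgeR), and without Control 1 it was -0.98 (adjusted p 0.0714 in edgeR) with no overlap between the groups. It moved the other way without Control 2, to -0.39 (adjusted p 0.679 in edgeR), and without Control 3, to -0.45.

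Ltbp1 (ENSMUSG00000001870, chromosome 17, 75005568 to 75392512, plus strand), the prototype of the family, which links latent TGF-beta to fibronectin and fibrillin, had the highest log2 fold change of the 10. Its values were 102, 227 and 164 CPM in FID 1, 2 and 3, against 107, 180 and 118 CPM in Control 1, 2 and 3. FID 1 was the lowest library of all and FID 2 the highest. The log2 fold change was 0.28 (SE 0.32, adjusted p 0.665 in edgeR), and without FID 2 it was -0.024.

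The summed latent binding protein level was lower in the FID libraries, at 289, 238 and 223 TPM in FID 1, 2 and 3, against 424, 454 and 408 TPM in Control 1, 2 and 3, with no overlap. Set against the ligands, with Ltbp2 kept in the sum, the difference was less clear. The ratio of summed latent binding proteins to summed ligands was 1.62, 1.40 and 1.59 in FID, against 1.27, 2.43 and 2.28 in Control, where Control 1 lay below all FID libraries. On the log2 scale the mean difference was -0.32, within the SD of 0.52 among Control libraries, and it was -0.62 without Control 1, -0.15 without Control 2 and -0.20 without Control 3. The sum includes Ltbp2, which stood at 97.6 TPM in Control 1, against 260 and 257 TPM in Control 2 and 3. A ratio without Ltbp2, which does not bind latent TGF-beta, was not computed. Within the family, Ltbp2 was the most abundant by length in every library except Control 1, with 41.5% to 55.3% of the summed level in FID, and 23.0%, 57.3% and 62.9% in Control 1, 2 and 3. In Control 1 Ltbp4 led with 46.2%. The share of Ltbp3 was 12.4 ± 2.01% in FID and 17.1 ± 4.93% in Control (SD, n = 3 each).

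**Figure D3:**
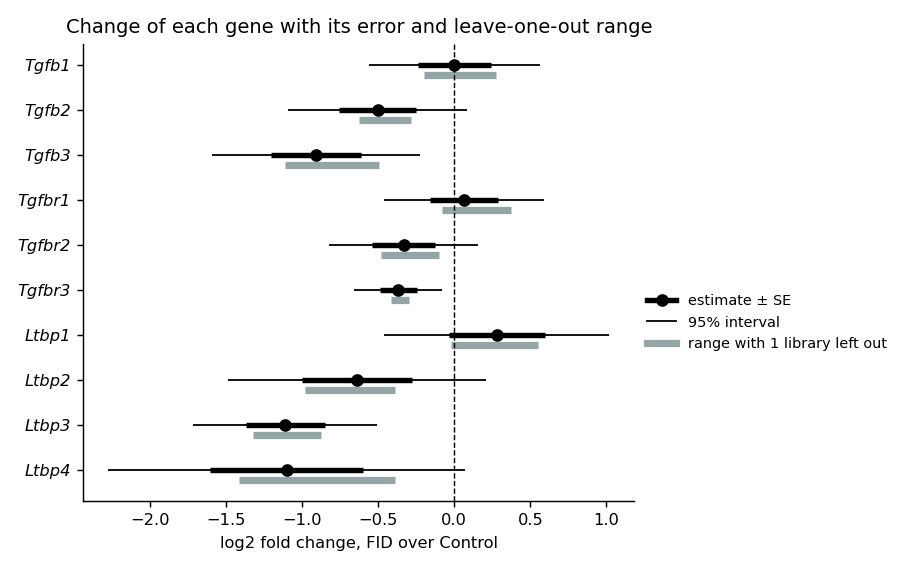
Log2 fold change of each gene, FID over Control, with points for the estimate, thick black bars for ± SE, thin bars for the 95% interval and grey bars for the range when any 1 library is left out. The intervals of Tgfb3, Tgfbr3 and Ltbp3 lie wholly below 0 before adjustment for multiple tests, and the grey bar of Ltbp4 spans -1.41 to -0.39.

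Markers of several cell types moved beside these genes, and in bulk RNA fewer cells of a type and less RNA per cell cannot be told apart. Macrophage and monocyte markers were higher in FID, with 12 of 12 tested members above 0 and a median log2 fold change of 0.74. Of the 12, 7 separated the groups, all upward, against 13.0% of all genes. The summed level was 5402 to 7044 CPM in FID, against 2674 to 4150 CPM in Control libraries. Lyz2, which overlapped between the groups, made up 1720 to 4302 CPM of it in FID and 1429 to 2283 CPM in Control. FAP and fibroblast markers had 11 of 12 tested members below 0 and a median of -0.32, Ly6a being the exception at 1.61. Endothelial markers had 7 of 7 members below 0 and a median of -0.65, with a summed level of 1188 to 1964 CPM in FID, and 4338, 1871 and 1229 CPM in Control 1, 2 and 3. Pericyte and smooth muscle markers (6 of 7 below 0) summed to 548 to 698 CPM in FID, and to 1454, 660 and 563 CPM in Control 1, 2 and 3. Tenocyte markers (4 of 5 tested below 0) summed to 1114, 539 and 400 CPM in FID 1, 2 and 3, and to 2329, 883 and 912 CPM in Control 1, 2 and 3. Thbs4 alone made up 829, 379 and 271 CPM of this in FID and 1615, 554 and 399 CPM in Control. Scx, with 0 to 15 counts per library, had a log2 fold change of 0.56, and Mkx, with 4 to 17 counts, was not tested. Control 1, the library highest in the sums of these vessel and tenocyte lists, was also the highest library for 8 of the 10 genes. The exceptions were Ltbp1 and Ltbp2.

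Summed levels of the remaining marker lists were lower. Satellite cell and myoblast markers summed to 35.9 to 66.7 CPM in FID and 32.4 to 119 CPM in Control libraries. Platelet markers summed to 83.2 to 171 CPM in FID and 78.0 to 108 CPM in Control libraries, nearly all of it Pf4, which macrophages also make. Neutrophil markers summed to 43.2 to 71.1 CPM in FID and 36.4 to 38.1 CPM in Control libraries. These sums did not overlap, but none of the 3 tested markers separated the groups by itself. Csf3r made up 30.5 to 54.5 CPM of the sum in FID and 15.1 to 33.0 CPM in Control. Markers of T, NK and B cells summed to at most 12.8 CPM in FID and 11.9 CPM in Control libraries, largely Cd4, and Cd3e had 0 counts in every library. The part of any of these cell types in the differences above was not tested.

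Set against the mean log2 level of the 13 FAP and fibroblast markers in the same library, only Ltbp3 still separated the groups. That mean was itself lower in FID, at 7.31 to 7.37 in FID and 7.53 to 7.63 in Control libraries. Relative to these markers Ltbp3 stood at -0.46, -0.89 and -1.22 in FID 1, 2 and 3, against 0.48, -0.11 and -0.34 in Control 1, 2 and 3. The mean difference was -0.86 on the log2 scale, and -0.73 with Ly6a left out of the markers, again without overlap. The corresponding differences were -0.58 for Tgfb3, -0.27 for Tgfb2 and -0.12 for Tgfbr3, each with overlap. That of Tgfbr3 turned to 0.02 without Ly6a. Tgfb1 had a difference of 0.29 relative to the FAP markers.

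Genes that carry and free latent TGF-beta were mostly lower in the FID libraries. Of 19 genes listed 18 were tested, 0 passed the adjusted test, and 16 had a log2 fold change below 0, with a median of -0.48 against -0.019 over all genes tested. At an unadjusted p under 0.05 there were 9, all lower, against 9.21% of all genes lower, and 9 separated the groups, all downward, against 12.3% of all genes. DESeq2 called 4 of the list, against 764 of all 12881 genes. Emilin1, whose product hinders the processing of the TGF-beta precursor, measured 249.6 ± 33.5 CPM in FID and 399.9 ± 23.6 CPM in Control (SD, n = 3 each), with a log2 fold change of -0.68 (SE 0.14). Fibrillins form the microfibrils on which latent binding proteins are laid down. Fbn2 had 19.5 ± 11.8 CPM in FID and 68.1 ± 26.2 CPM in Control, a log2 fold change of -1.80 (SE 0.44), and Fbn1 had -0.50 (SE 0.15). Fn1, the fibronectin gene, stood at 4054, 2016 and 1918 CPM in FID 1, 2 and 3, against 5761, 5148 and 5070 CPM in Control 1, 2 and 3, a log2 fold change of -1.0003 (SE 0.29). Nrros, a latent TGF-beta carrier of myeloid cells that was singled out after its values were seen, had a log2 fold change of 0.56 (SE 0.25), at 77.2, 95.7 and 72.7 CPM in FID, against 76.1, 53.6 and 37.7 CPM in Control. The adjusted p in edgeR of the first 4 genes ranged from 0.136 to 0.165.

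Co-receptors, ligand binders and receptor regulators had a log2 fold change below 0 in 14 of the 14 tested genes of 15 listed. The median was -0.48, 0 passed the adjusted test, and DESeq2 called 1, against 764 of all 12881 genes. At an unadjusted p under 0.05 there were 6, all lower, against 9.21% of all genes. There were 3 of the 14 that separated the groups, all downward, against 12.3% of all genes. Several are small leucine-rich proteoglycans, which bind TGF-beta in the matrix. Bgn measured 3752, 3449 and 3090 CPM in FID 1, 2 and 3, against 5809, 5226 and 5174 CPM in Control 1, 2 and 3, a log2 fold change of -0.66 (SE 0.14, adjusted p 0.136 in edgeR). Aspn and Dcn had -0.46 (SE 0.17) and -0.53 (SE 0.20), and Vasn, a membrane protein that traps TGF-beta, had -0.65 (SE 0.24). Dcn and Vasn overlapped between the groups.

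By their median, SMAD signalling genes lay closest to no difference. All 15 were tested, 14 of them lay below 0 on the log2 scale, and the median was -0.23. None passed the adjusted test, nor that of DESeq2. At an unadjusted p under 0.05 there were 3 lower and 1 higher, against 9.21% and 9.81% of all genes. The groups separated downward in 5 and upward in 1, against 12.3% and 13.0% of all genes. Smad7, the inhibitory SMAD that TGF-beta itself induces, stood at 142, 79.0 and 76.9 CPM in FID 1, 2 and 3, against 143, 158 and 160 CPM in Control 1, 2 and 3. FID 1 was almost level with Control 1, and the log2 fold change was -0.63 (SE 0.25, adjusted p 0.230 in edgeR). The ubiquitin ligase gene Smurf1 had -0.43 (SE 0.14) and Trim33, whose product binds SMAD complexes, -0.37 (SE 0.15). Usp15, a deubiquitinase of receptors and SMADs, was the member higher in FID, at 0.38 (SE 0.14).

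Genes known to respond to TGF-beta were mostly lower in the FID libraries, with some higher. Of 20 listed 19 were tested, and 14 had a log2 fold change below 0 and 5 above, against 52.2% and 47.8% of all genes. The median was -0.40, and 0 passed the adjusted test. At an unadjusted p under 0.05 there were 6 lower and 1 higher, against 9.21% and 9.81% of all genes. Of the 19, 4 separated the groups downward and 2 upward, against 12.3% and 13.0% of all genes. DESeq2 called 2 of the list, against 764 of all 12881 genes. Col1a1 and Col3a1, which encode fibrillar collagens, had -0.89 (SE 0.18) and -0.83 (SE 0.24). Acta2, the actin gene of smooth muscle and myofibroblasts, measured 158, 164 and 137 CPM in FID, against 509, 200 and 202 CPM in Control 1, 2 and 3, a log2 fold change of -0.99 (SE 0.36, adjusted p 0.212 in edgeR). Cilp, a cartilage matrix gene, had -1.44 (SE 0.56) and overlapped between the groups. Tgfbi and Ccn1, singled out after their values were seen, separated the groups in the other direction, with 0.37 (SE 0.15) and 0.48 (SE 0.24). The classic target Ccn2, also picked afterwards, overlapped, with -0.16 (SE 0.24).

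**Figure D4:**
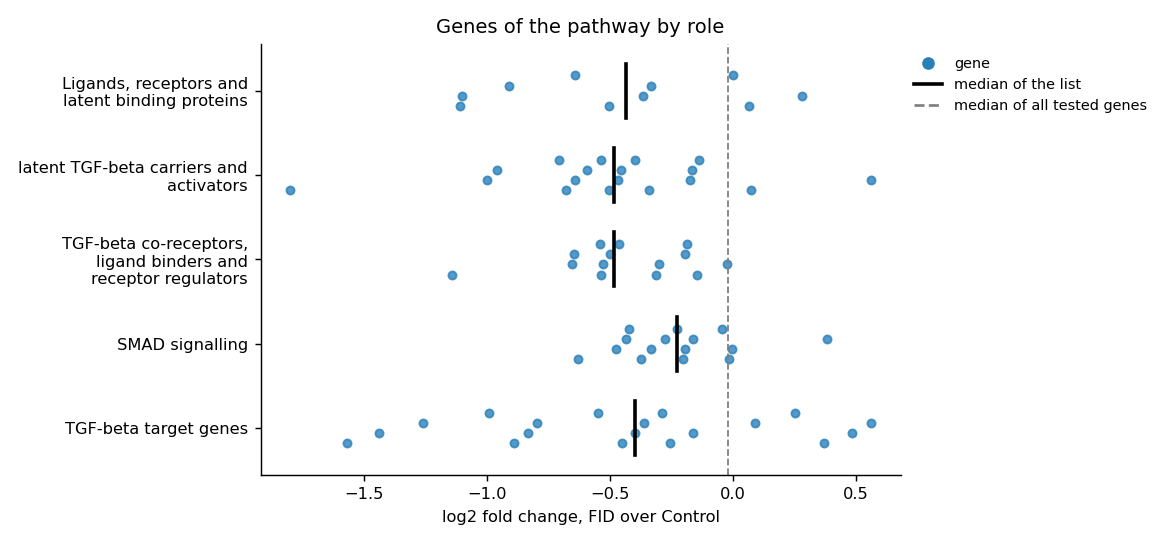
Log2 fold change, FID over Control, of every tested gene of the 10 and of 4 lists of the pathway, with 1 point per gene, a black bar for the median of each list and a dashed line for the median of all genes tested. Medians lie between -0.23 and -0.48, left of the dashed line at -0.019, and the response genes spread on either side of 0.

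Likeness of pattern was measured as the root mean square difference of log2(CPM + 1), centred on each gene's mean, over the 6 libraries. Nearest to Tgfb1 were 8030462N17Rik at 0.043, Tfeb at 0.046 and Tmppe at 0.052. Among the genes nearest to Tgfbr2 were Zfp319 at 0.041 and Dgka at 0.042. Ltbp2, with its low value in Control 1, had no such close match, its nearest genes being Arc at 0.141, Plekhg4 at 0.156 and Kntc1 at 0.156.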

How the data were processed

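The authors deposited raw counts of reads per Ensembl gene, 1 table per library. The submitters' processing notes name mm10 as the build and, with no role for each, Bowtie2 2.5.4, STAR, cutadapt, SAMtools, HTSeq and DESeq2. Entries that name no gene (9.60% to 10.9% of each deposited table) were left out. Such entries include reads that matched several places. Symbols came from a GENCODE M21 name table (97.8% of 43432 genes), and coordinates and exon lengths from the same annotation, which is on the same assembly.

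Genes were filtered with filterByExpr (minimum count 10, minimum total 15), which kept 12881, and scaled with TMM factors. Libraries labelled FID were compared with libraries labelled Control by the two-sided quasi-likelihood test of edgeR 4.0.16 in R 4.3.3, with group as the only term and Benjamini-Hochberg adjustment at 0.05. SE is the absolute log2 fold change over the square root of F, and the 95% intervals built on it are approximate. Fits were tested on simulated data. Alternatives were DESeq2 1.42.0, limma-voom 3.58.1, other scalings and filters, a replicate block and each library left out. A count of 0 allows up to 3 counts, or 0.593 CPM in the shallowest library, covering counting error only. Libraries of a group differed by more than sampling noise (chi-square per degree of freedom 14.1 to 46.0).

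The members, the lists and the rule for named genes were chosen with earlier results of these data known. The rule takes the 10 members, Igf1, the 4 genes with the smallest p of each of 4 pathway lists, the 3 genes nearest in pattern to the most abundant member of each role, and the markers. Some genes that the rule takes are not reported here. How the counting treated strand is not stated, so reads of antisense genes cannot be told apart from those of the gene itself.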

Additional observations from a re-analysis of the deposited data

How the results depend on the processing

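With edgeR 0 of 12881 genes passed, 2449 having an unadjusted p under 0.05. DESeq2 called 764 genes, 1 of the 10 members (Ltbp3), 4 carriers and activators, 1 co-receptor or ligand binder and 2 response genes. With no filter on low counts edgeR called 269 of 21380 genes, with 1 member (Ltbp3, log2 fold change -1.08, adjusted p 0.0416), 1 carrier and 1 response gene. Leaving out 1 library gave 0 to 359 genes of the 13069 to 13153 tested. Among them were 0 to 3 carriers, 0 to 1 SMAD gene and 0 to 2 response genes. The highest counts were each without FID 1, and without Control 1 there were 3 genes. No member was called in any of these 6 fits, and the adjusted p of Ltbp3 in them was 0.0557 to 0.443. With 1 library left out and the scaling of all 6 kept, 4 to 6 members lay wholly lower in FID, against 14.8% to 20.1% of all genes. This count, an alternative chosen after seeing the data, cannot fall below the 4 of the full set. It is therefore no test of how stable the separation is. The cause of the changes in the calls was not tested.

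Of 130 alternative values of the members' log2 fold changes, 119 kept sign and call, 9 changed sign and 2 (Ltbp3) passed. Tgfb1 took 0.013 with upper-quartile factors, 0.049 with limma-voom, 0.027 with no filter and 0.047 with the replicate block, and -0.20 to 0.27 with 1 library left out. Tgfbr1 ranged from -0.079 to 0.37 and Ltbp1 from -0.024 to 0.55 with 1 library left out. The difference in Tgfb1 share (11.9 to 17.6 percentage points with 1 library left out), in the ratio of latent binding proteins to ligands (-0.62 to -0.15, log2) and in that of Tgfbr3 to the other receptors (-0.37 to -0.047, log2) kept its direction under the alternatives run, which did not include the other shares.

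Same-numbered FID and Control libraries did not consistently deviate together (r across genes -0.013, -0.32 and 0.34 for numbers 1, 2 and 3). The r of number 3 was the highest of any FID and Control pair, beside 0.33 for FID 2 and Control 1. The replicate block left 0 genes called. With it 5 members, all lower, had an unadjusted p under 0.05 in edgeR, against 3 without it. Over all 12881 genes these numbers were 2371 and 2449. Control 1 has the fewest counts.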
